A study of Gallus gallus with 28 samples.

Results

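APOA1, APOB, LCAT and LRP1, 4 genes whose products build, remodel or take up plasma lipoproteins, were examined in chicken livers (Gallus gallus), with a lean line set against a fat line. They were found by gene symbol in the platform annotation, which names 142 genes. The 4 genes stand at 13 of the 576 printed positions, which hold 39 of the 1728 spots, since each position consists of 3 spots of the same cDNA printed 3 rows apart. Of these 13 positions, 9 belong to APOA1, 2 to LRP1, and 1 each to APOB and LCAT. Only 5 of them had enough values for a comparison of the lines, against 297 of all positions.

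The samples were 10 pools of liver RNA, pools 1 to 5 from the lean line and pools 6 to 10 from the fat line, each made of total RNA from 4 chickens from which poly(A)+ RNA was then isolated. Each pool was hybridised to 3 arrays, except pools 3 and 8 with 2, which gives 14 arrays per line and 28 in all. On every array the pool carried the dye Cy5 and competed with a Cy3-labelled common reference, a mixture of the poly(A)+ RNA of all 10 pools, so that both lines are part of the reference and no array has the dyes swapped. The labels give no age, sex, diet or origin of the lines, and the 4 chickens of a pool cannot be told apart.

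Lipoproteins carry triglyceride and cholesterol through the blood. APOA1 is the main protein of high-density lipoprotein and the cofactor of LCAT, the plasma enzyme that esterifies cholesterol on these particles. APOB forms the protein backbone of very low density lipoprotein, and LRP1 is a large endocytic receptor that takes up lipoprotein remnants and many other ligands. In birds the liver is the main site of fatty acid synthesis, and adipose tissue receives most of its triglyceride as very low density lipoprotein made in the liver. In the reference gene order APOA1 lies beside APOC3 and APOA4, which encode other apolipoproteins, and beside SIK3, a kinase gene, on its other side. APOB lies between LDAH, which encodes a lipid droplet protein, and TDRD15.

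Values are log2 ratios, taken as pool over reference, so that 0 is the level of the mixture and a difference of 1 between lines is a doubling. This direction is likely from the channel order but is not settled, because no source states it. Of the 378 pairs of arrays 2 correlated below -0.3 over spots (lowest Pearson r -0.312), and 0 without values beyond 5 on the log2 scale (lowest -0.295). These correlations stay as they are when every array is turned. Turning the sign of every ratio gives differences of the same size, error and p with the opposite sign, -0.43 for APOA1, -0.03 for APOB, -0.09 for LCAT, and 0.02 and 0.05 for the LRP1 cDNAs. An array had values for 450 to 741 of its 1728 spots, and the array medians lay between -0.06 and 0.07. A pool of liver RNA cannot tell fewer cells of a type from less RNA per cell. Hepatocyte identity could not be checked as a level, because both channels hold liver RNA. Of 12 hepatocyte markers, 5 were on the array, ALB (albumin) among them with no value on any array, and 0 markers of erythrocytes, leukocytes, stromal cells, endothelium, adipocytes or cholangiocytes were present.

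None of the lipoprotein genes differed detectably between the lines. Pool values of APOB, LCAT and both LRP1 cDNAs lay between -0.21 and 0.32 in every pool, and the mean differences between the lines, fat minus lean, were at most 0.09 in size. APOA1 was the gene with the widest pool values and the fewest of them. Of the 5 tested positions 0 were called by limma at an adjusted p under 0.05, where 0% of the 297 tested positions were called. At an unadjusted p under 0.05 the count was again 0 of 5, against 9.43% of all tested positions. The lines overlapped at each of the 4 positions with values in all 10 pools. Of the 232 such positions, 2.59% had lines that did not overlap.

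**Figure D1:**
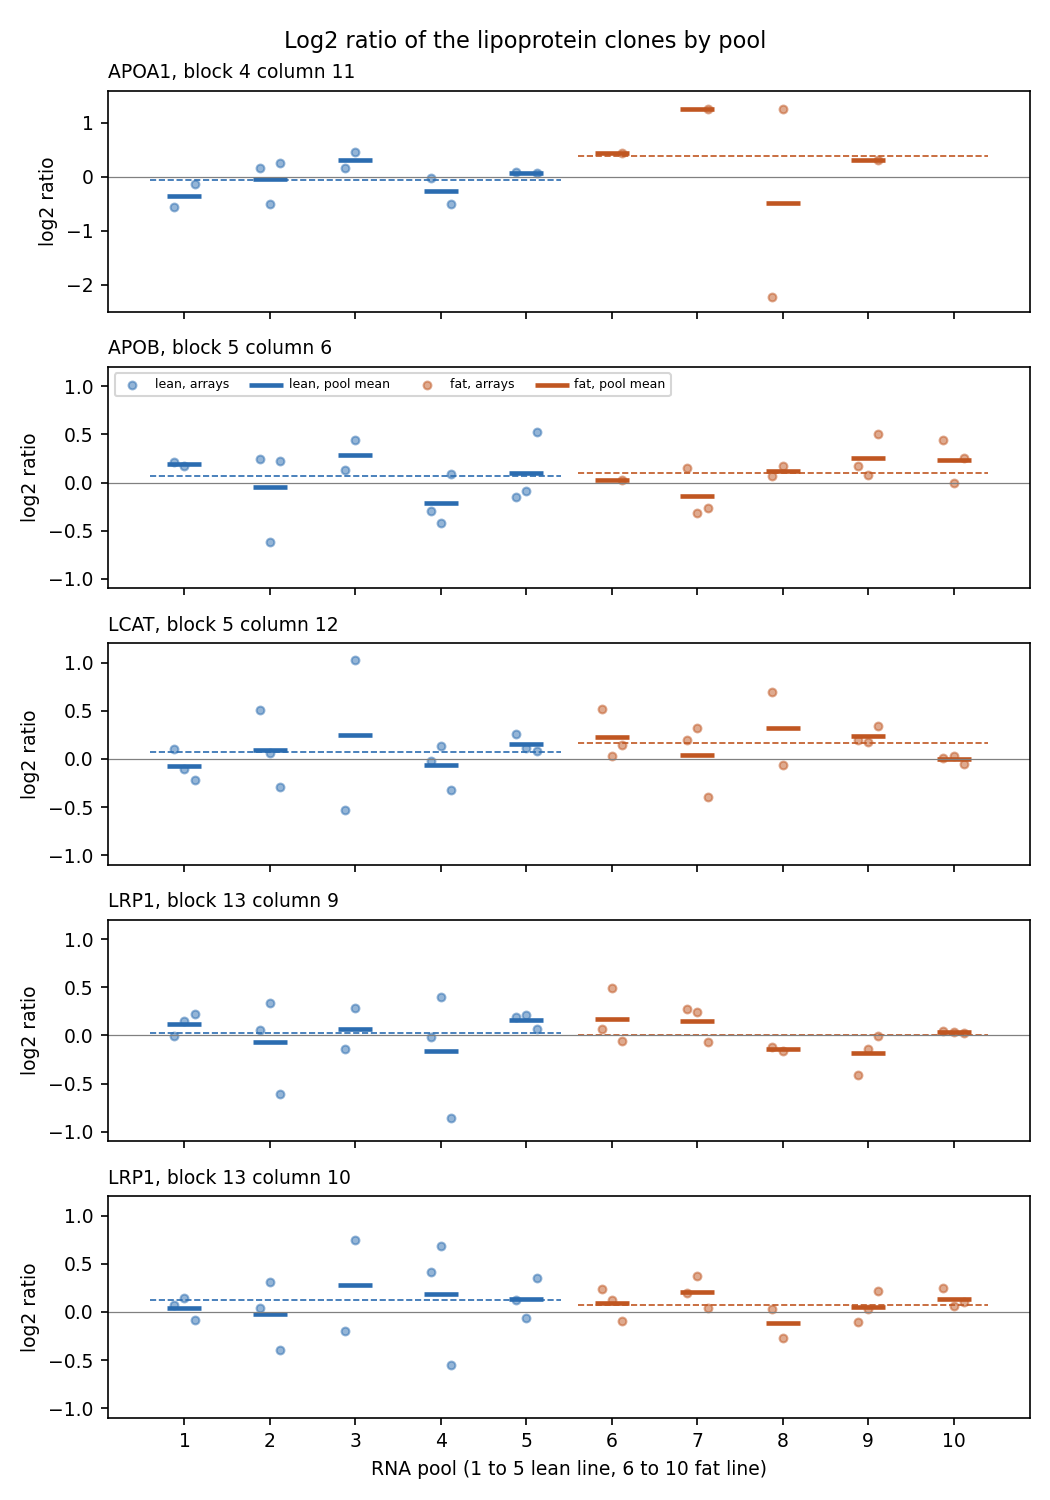
Log2 ratio (vertical axis) of the 5 tested positions in each RNA pool (horizontal axis); points are arrays, thick bars are pool means and dashed lines are the means of the lean (blue) and fat (orange) pools. The vertical scale of APOA1 is wider than that of the other panels, its arrays run from -2.23 to 1.26, and pool 10 has no APOA1 value.

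APOA1 was the gene most often printed and the one most often without a value. Its 9 positions carry 4 different cDNAs. On the 28 arrays these positions gave 48 spot values of 756 possible, or 6.35%, against 51.3% for all named positions and 36.7% for the whole table. At 4 of the 9 positions no array had a value, and 4 others had a value on 1, 1, 2 and 3 arrays. Blocks 13 and 15 held those 4. In block 13, columns 6 and 8, the values came from the second array of fat pool 6 alone, with means of 0.10 and 0.21. In block 15, column 1, the mean was 0.11 on an array of lean pool 4 and -2.29, from 1 spot, on an array of fat pool 9. In block 15, column 4, single spots gave -2.91 in lean pool 3, -1.16 in lean pool 5 and 0.08 in fat pool 9. These sparse values thus covered more than 2 log2 units within the lean line and again in fat pool 9. Both positions of block 15 carry the same cDNA, but their values in fat pool 9 came from different arrays. No comparison of the lines was made from these values alone. With the spots of all APOA1 positions averaged, fat minus lean was 0.39 (limma adjusted p = 0.681).

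**Figure D2:**
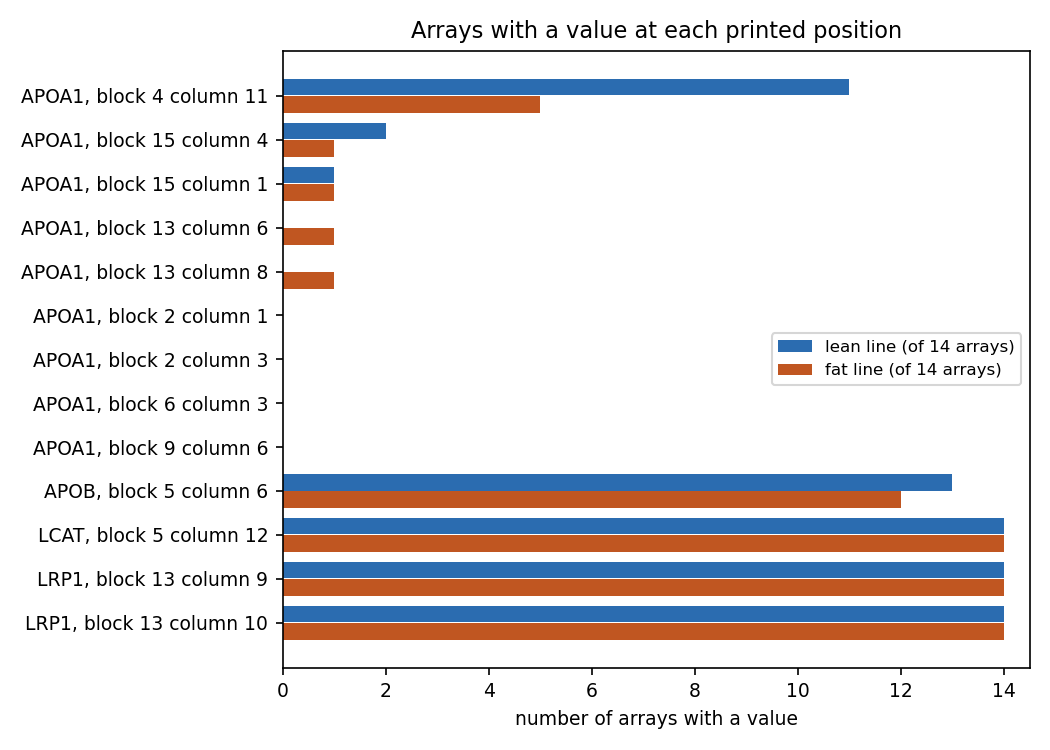
Number of arrays with a value (horizontal axis, of 14 arrays per line) at each of the 13 printed positions of the lipoprotein genes, for the lean (blue) and the fat (orange) line. Both LRP1 positions and LCAT have a value on all 28 arrays, and 4 APOA1 positions have none.

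The remaining APOA1 position, block 4 column 11, carried that same cDNA and had values on 16 arrays, 11 of the lean and 5 of the fat line. Lean pools 1 to 5 had values on 2, 3, 2, 2 and 2 arrays, and fat pools 6 to 10 on 1, 1, 2, 1 and 0 arrays. The share of arrays with a value was 80.0% ± 18.3 (SD, n = 5 pools) in the lean and 40.0% ± 36.5 (SD, n = 5 pools) in the fat line, a difference of -40.0 percentage points with a two-sided exact permutation p of 0.119. This does not pass 0.05, which 2.27% of the 308 positions with a value on some but not all arrays did. Some of the 308 have a value on 1 array only and cannot reach that threshold, so the 2.27% is a low background. Of the 308 positions 7, this one among them, had a share at least as much lower in the fat line. For APOB the shares were 93.3% ± 14.9 and 86.7% ± 29.8 (SD, n = 5 pools each; exact permutation p = 1), and LCAT and LRP1 had a value on every array. Why a spot has no value is not given in the sources used here, so a missing value is not read as a low level.

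The lean pools 1 to 5 had APOA1 log2 ratios of -0.35, -0.03, 0.315, -0.26 and 0.08. The fat pools 6 to 9 had 0.44, 1.26, -0.48 and 0.32. Fat pools 6, 7 and 9 thus lay above every lean pool, the last by less than 0.01, and fat pool 8 lay below every lean pool. The mean was -0.05 ± 0.27 (SD, n = 5) in the lean and 0.38 ± 0.71 (SD, n = 4) in the fat line. The lines differed by 0.43 (standard error 0.31, 95% interval -0.26 to 1.13; limma adjusted p = 0.656). As a ratio this is 1.35-fold, with an interval of 0.834 to 2.19. The exact permutation test over the 126 splits of the 9 pools gave a two-sided p of 0.27. By size this difference was rank 55 of 297.

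Single spots carried much of the APOA1 difference. Pool 7 was represented by 1 spot on 1 array, at 1.26. Pool 8 had spots of -3.08 and -1.37 on its first array, mean -2.23, and 1 spot of 1.26 on its second. Without pool 7 the difference was 0.14. Without pool 8 it was 0.72 (limma unadjusted p = 0.0199, adjusted p = 0.501), and without the first array of pool 8 it was 0.87 (limma unadjusted p = 0.00601, adjusted p = 0.252). Without the second array of pool 8 it was -0.00231, and when arrays with fewer than 2 spots were left out it was -0.37. Either way pool 8 was then represented by its first array alone, at -2.23. Leaving out arrays with fewer than 2 spots also removed pool 7, whose only value is 1 spot, and the third arrays of lean pools 1 and 2. The sign of the APOA1 difference thus depended on which sparse arrays were kept. The SD between arrays of a pool was 0.976 for APOA1 and 0.314 without pool 8, against a median of 0.377 over all tested positions. No other fat pool had more than 1 array with a value, so the SD without pool 8 rests on the lean pools alone.

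APOB, in block 5 column 6, had values on 25 arrays. Its log2 ratios were 0.19, -0.05, 0.29, -0.21 and 0.09 in lean pools 1 to 5 and 0.02, -0.14, 0.12, 0.25 and 0.23 in fat pools 6 to 10. The fat pools lay inside the range of the lean pools, with 4 of 5 fat and 3 of 5 lean pools above 0. The means were 0.06 ± 0.20 (SD, n = 5) and 0.10 ± 0.16 (SD, n = 5). The lines differed by 0.03 (standard error 0.13, 95% interval -0.26 to 0.33; limma adjusted p = 0.946; exact permutation p = 0.778). As a ratio it was 1.02-fold with an interval of 0.834 to 1.25, so 5 pools a line leave room for a difference of either sign within that interval. The sign turned when pool 4, 9 or 10 was left out, over a range of -0.04 to 0.09 across the pools, and with only the first array of each pool the APOB difference was 0.18. The 3 arrays of lean pool 2 gave 0.24, -0.61 and 0.22, the widest range of any pool, and those of lean pool 1 gave 0.21 and 0.17. Single arrays vary more than means over pools, so these gaps are not set against the difference of the lines.

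LCAT, in block 5 column 12, had a value on all 28 arrays. The lean pools were at -0.07, 0.09, 0.25, -0.07 and 0.15 and the fat pools at 0.23, 0.04, 0.32, 0.24 and -0.00333. Only fat pool 8 lay above the highest lean pool. The means were 0.07 ± 0.14 (SD, n = 5) and 0.16 ± 0.14 (SD, n = 5). The lines differed by 0.09 (standard error 0.12, 95% interval -0.16 to 0.35; limma adjusted p = 0.766; exact permutation p = 0.317). The ratio was 1.07-fold, with an interval of 0.892 to 1.28. The highest pool of each line held arrays far apart, at -0.53 and 1.03 in lean pool 3, where the second value is a single spot, and at 0.70 and -0.06 in fat pool 8. Without that second array of pool 3 the LCAT difference was 0.25, without the first array of pool 8 it was 0.02, and with only the second array of each pool it was -0.15.

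LRP1 was represented by 2 different cDNAs printed side by side in block 13, in columns 9 and 10, each with a value on all 28 arrays. In column 9 the lean pools were at 0.12, -0.07, 0.07, -0.16 and 0.16 and the fat pools at 0.17, 0.15, -0.14, -0.19 and 0.04. In column 10 the lean pools were at 0.04, -0.02, 0.28, 0.18 and 0.14 and the fat pools at 0.09, 0.20, -0.12, 0.05 and 0.14. Fat pool 6 was the highest pool in column 9 and lean pool 3 in column 10. The lines overlapped in both columns, and lean pool 2 and fat pool 8 were below 0 in both. In column 9 the means were 0.02 ± 0.13 and 0.01 ± 0.16 (SD, n = 5 each), and fat minus lean was -0.02 (standard error 0.12, 95% interval -0.28 to 0.25; limma adjusted p = 0.972; exact permutation p = 0.841). In column 10 they were 0.12 ± 0.12 and 0.07 ± 0.12 (SD, n = 5 each), and fat minus lean was -0.05 (standard error 0.11, 95% interval -0.30 to 0.19; limma adjusted p = 0.879; exact permutation p = 0.516). The ratios were 0.989-fold (interval 0.822 to 1.19) and 0.964-fold (0.815 to 1.14). The exact tests of APOB, LCAT and LRP1 ran over 252 splits, with 0.00794 as the smallest possible p. In column 9 the sign turned when pool 1, 5, 8 or 9 was left out, over a range of -0.06 to 0.03, and in both columns it turned without the second array of pool 3 (0.03 and 0.04). With only the second array of each pool the LRP1 differences were -0.18 in column 9 and -0.30 in column 10.

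**Figure D3:**
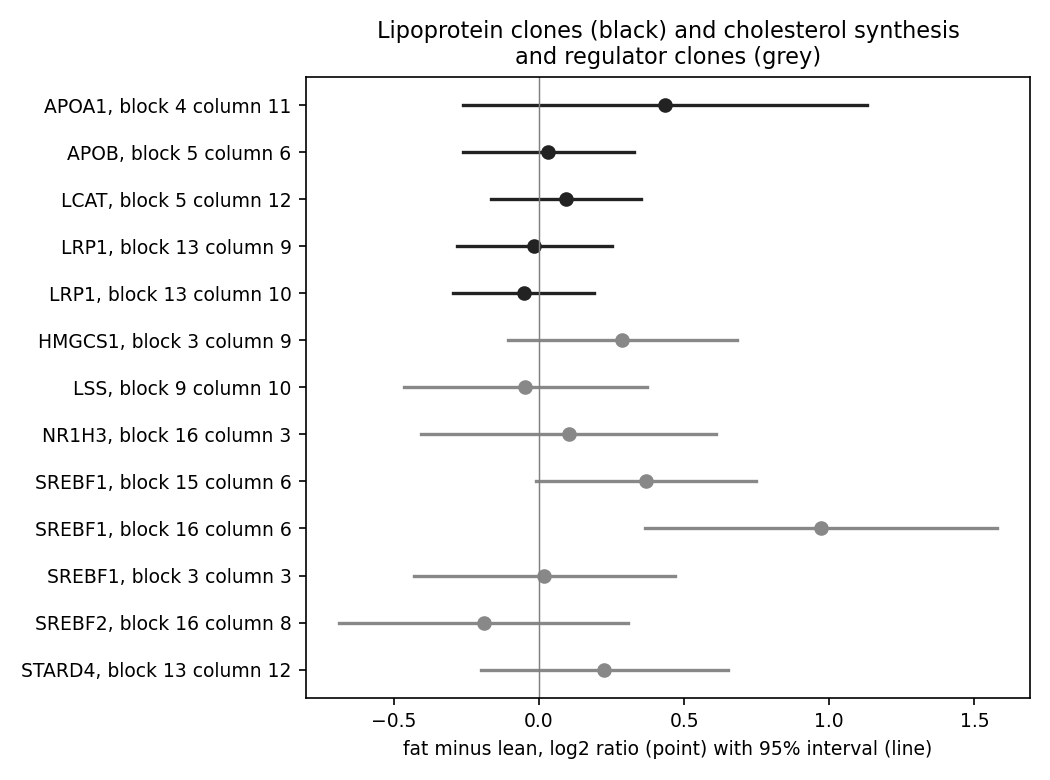
Difference of the mean log2 ratio, fat minus lean (horizontal axis), with its 95% interval, for the 5 tested positions of the lipoprotein genes (black) and 8 tested positions of genes of cholesterol synthesis and its regulators (grey). All 5 black intervals include 0, and the widest of them is that of APOA1, -0.26 to 1.13.

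The LRP1 cDNAs tracked each other on single arrays more closely than across pools. Over the 28 arrays their values correlated with a Pearson r of 0.734, which is a description, since arrays of a pool share RNA. Both cDNAs were low on the third array of pool 2 (-0.61 and -0.39, columns 9 and 10) and on the third array of pool 4 (-0.86 and -0.55), and high on the second array of pool 3 (0.28 and 0.75). Over the 10 pools Pearson's r was 0.423 (permutation p = 0.232) and Spearman's rho 0.248 (permutation p = 0.493), a single relation tested. Without the 2 pools farthest from the median of column 9, lean pool 4 and fat pool 9, r was 0.679. The cDNAs also lay far apart in these pools (-0.16 and 0.18, and -0.19 and 0.05, columns 9 and 10). The higher r without them is thus not read as closer agreement. The gap between the cDNAs, column 10 minus column 9, averaged 0.08 ± 0.14 (SD, n = 10) and was largest, at 0.34, in lean pool 4.

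The neighbouring LRP1 cDNAs also shared deviations among the 3 spots of an array. After the array mean of each cDNA was taken away, spots in the same printed row correlated with an r of 0.608 over 74 spots. For adjacent positions that are not of one named gene the median r was 0.168 over 181 pairs, and 2 of those pairs had an r as high as the LRP1 pair. PFKL, a phosphofructokinase gene printed on the other side of LRP1 column 10, had an r of 0.495 with it over 56 spots and of 0.642 over 26 arrays. A place on the slide and a shared gene cannot be told apart in the agreement of the LRP1 cDNAs.

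**Figure D4:**
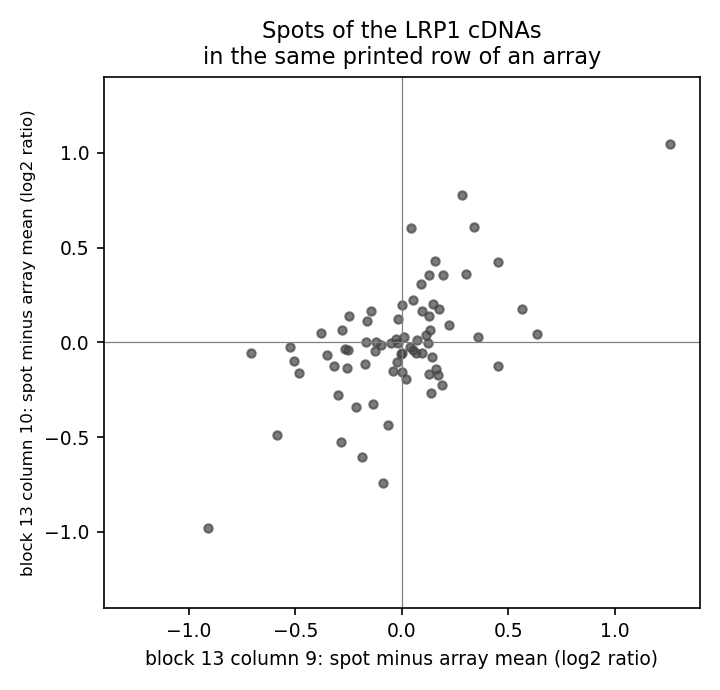
Deviation of each spot from the mean of its cDNA on the same array (log2 ratio) for the LRP1 cDNA in column 9 (horizontal axis) and column 10 (vertical axis); each of the 74 points is a printed row of an array where both had a value. Points lie mostly in the lower left and upper right, with r = 0.608.

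The spread between pools was small for APOB, LCAT and LRP1. The SD between pools within a line was 0.181 for APOB, 0.139 for LCAT, and 0.149 and 0.119 for LRP1 in columns 9 and 10. Among the 297 tested positions the median was 0.323, and 254, 272, 266 and 285 of them had a larger SD than these in turn. The comparison held among the 183 positions with values on at least 25 arrays, whose median was 0.263 and of which 143, 159, 153 and 172 had a larger SD. APOA1, with an SD of 0.508, had 77 of 297 positions above it. The SD between arrays of a pool was 0.292 for APOB, 0.37 for LCAT, and 0.311 and 0.322 for LRP1. Each was larger than the SD between its pools, an order that the medians of all tested positions also had (0.377 and 0.323). Pool values are means over arrays and so vary less than single arrays from array error alone, and nothing is read from this order.

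Pools of the same line could be compared with the error between their arrays by limma's F test. Between the lean pools 0 of the 5 positions were called, where 0.529% of 189 tested positions were called at an adjusted p under 0.05 and 15.9% had an unadjusted p under 0.05. The F values were 1.42 for APOA1 (limma adjusted p = 0.544), 0.735 for APOB (0.779), 0.305 for LCAT (0.929), and 0.379 (0.913) and 0.215 (0.951) for LRP1. Between the fat pools 0 of 3 positions were called, where 0% of 202 positions were called and 22.8% had an unadjusted p under 0.05. There F was 0.628 for LCAT (limma adjusted p = 0.783), and 1.53 (0.522) and 0.84 (0.706) for LRP1, while APOA1 and APOB had fewer than 2 arrays in at least 1 fat pool and were not tested. Where it was tested, a difference between pools of the same line was thus not detectable in these genes against the error between arrays.

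Other genes of lipoprotein and cholesterol handling were read from lists. Of 9 genes of apolipoproteins and lipoprotein assembly 1 was on the array, PDIA4, a protein disulfide isomerase of the endoplasmic reticulum, with values on 2 arrays only. Of 7 genes of lipases and lipoprotein remodelling and of 12 of receptors and cholesterol export, 0 were on the array. Of 21 genes of cholesterol synthesis and its regulators 6 were present at 8 tested positions, 6 of them higher and 2 lower in the fat line, with a median difference of 0.16. Over all tested positions 163 of 297 were higher in the fat line and the median was 0.03. With the sign of every ratio turned, the list has 2 higher and 6 lower positions and a median of -0.16, and all tested positions have 134 higher and a median of -0.03. None of the 8 was called by limma at an adjusted p under 0.05, where 0% of the 297 tested positions were called. At an unadjusted p under 0.05 the count was 1, a SREBF1 position with values on 12 arrays, against 9.43% of all tested positions. The SREBF1 positions carry the same cDNA and were each counted.

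SREBF1, the transcription factor that drives genes of fatty acid synthesis, stood at 3 positions with the same cDNA, whose differences were 0.97 (standard error 0.26, 4 lean and 3 fat pools, limma adjusted p = 0.239), 0.37 and 0.02. Differences were 0.29 for HMGCS1, an early enzyme of cholesterol synthesis (standard error 0.18, limma adjusted p = 0.656), 0.22 for STARD4, a cholesterol carrier, and 0.10 for NR1H3, the oxysterol receptor LXR alpha. They were -0.05 for LSS, which forms lanosterol, and -0.19 for SREBF2, the regulator of cholesterol synthesis. The hepatocyte markers other than APOA1 and APOB were GC, the vitamin D binding protein, at 0.49 and -0.26 in 2 cDNAs, and AHSG, a plasma glycoprotein, at -0.30. Each of these differences changes sign with the ratios turned.

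The named positions whose pool values were most like those of each lipoprotein gene were listed by Pearson's r over 9 or 10 pools, as a description, since all positions share the same arrays. LCAT came closest to CAT, the peroxisomal enzyme catalase, at both positions of that gene (0.866 and 0.739), and to STARD4 (0.746). APOB came closest to ALDOC, an aldolase gene, (0.845), PGK2, a phosphoglycerate kinase gene, (0.843) and SCD, the stearoyl-CoA desaturase (0.696). ALDOC is printed beside APOB, and adjacent positions had a median r of 0.227 over 149 pairs against 0.00346 for 32436 other pairs. For APOB and ALDOC the r over 22 arrays was 0.451 and that of spot deviations 0.282 over 56 spots, while LCAT and CAT are not neighbours.

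APOA1 was most like PCK2, the mitochondrial PEP carboxykinase (0.671), CFI, a complement protease (0.656), and SEC61A1, a subunit of the translocon (0.646), over 9 pools and among 117 positions. LRP1 in column 9 was most like DUSP15, a phosphatase gene, (0.709), PGAM1, a phosphoglycerate mutase gene, (0.679) and LOC416086 (0.658). In column 10 it was most like GC (0.742), SREBF2 (0.648) and SEC61A1 (0.643). The lists of the LRP1 cDNAs share 0 genes, and each r is among the 3 highest of 117 to 129 positions compared, picked for its size.

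**Figure D5:**
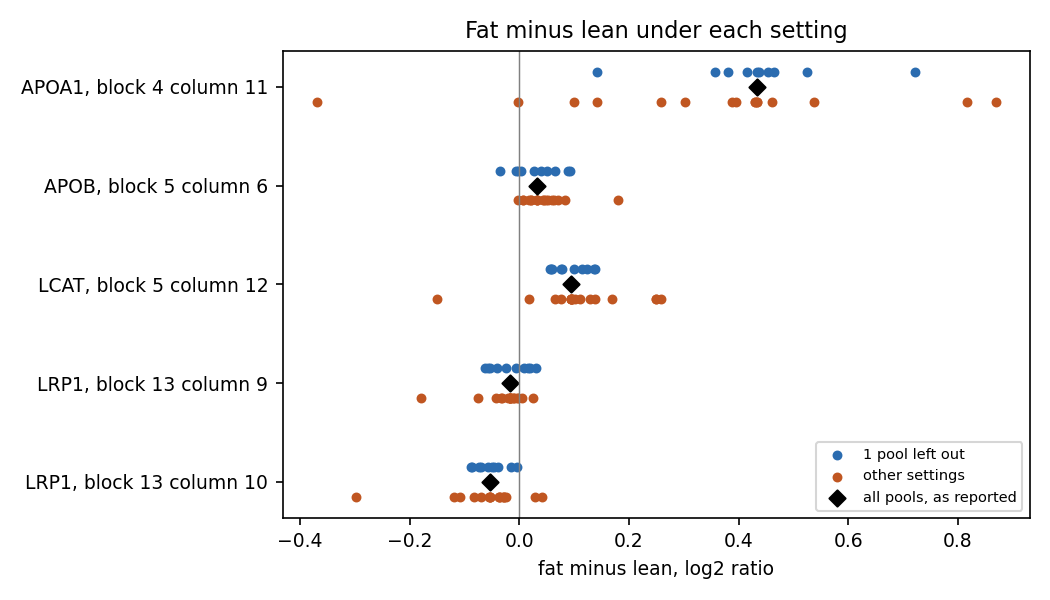
Difference of the mean log2 ratio, fat minus lean (horizontal axis), of the 5 tested positions with all pools (black diamonds), with 1 pool left out (blue) and under other processing settings (orange), the turned sign apart. APOA1 runs from -0.37 to 0.87, and every position has points on both sides of 0.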

How the data were processed

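The values are log2 ratios, 1 per spot and array, as deposited by the authors in the series' value table. The log base was inferred from the largest value, 14.01, and the dyes come from the labels' protocols. How slides were scanned, spots filtered and ratios normalized is not given in the sources used here. No genome build is named, so no coordinates are given, and the GRCg7b gene table served for names and gene order only. Gene IDs of 618 of 618 annotated spots matched it, and the 3 spots of a position had the same annotation at 206 of 206 named positions. All value columns were used (0 left out), and no value was imputed.

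The spots of a position were averaged, then the arrays of a pool. The 297 positions measured in 3 or more lean and 3 or more fat pools were fitted with limma 3.58.1 (R 4.3.3), with two-sided moderated tests from eBayes and Benjamini-Hochberg adjustment over all of them. The pool was the replicate, because its arrays share RNA. The p-values between lines rest on the spread between pool values, which holds array error besides differences between pools of 4 chickens. Exact permutation tests and correlations used Python 3.11.15 and scipy 1.17.1. Pools of a line were compared by a limma F test on arrays, for positions with at least 2 arrays in every pool. The scripts were tested on simulated data. The number of pools and arrays limits the precision.

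All positions of the 4 genes were described, other genes came from lists of lipoprotein and cholesterol handling, and the 3 most similar named positions by Pearson's r (at least 9 shared pools) were named. The members and lists were chosen with earlier results of these data known. The checks on shares of arrays with a value, on adjacent positions and on single arrays were added after seeing the data. Arrays carry a replicate number. Deviations of arrays with the same number in different pools correlated with a median r of 0.03 over 118 pairs (lowest -0.28), against -0.02 for other numbers, so the number was not taken to pair arrays.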

Additional observations from a re-analysis of the deposited data

How the results depend on the processing

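No setting called a lipoprotein position at an adjusted p under 0.05 by limma. The lowest and highest adjusted p were 0.252 and 0.997 for APOA1, 0.797 and 0.997 for APOB, 0.511 and 0.954 for LCAT, 0.615 and 0.990 for LRP1 in column 9 and 0.497 and 0.991 in column 10. Signs changed as follows. With every ratio turned the differences were -0.433 for APOA1, -0.0324 for APOB, -0.0937 for LCAT, and 0.0166 and 0.0529 for LRP1 in columns 9 and 10. APOA1 was at -0.37 with at least 2 spots per array and at -0.00231 without the second array of pool 8. APOB was at -0.00133 with medians over arrays, LCAT at -0.15 with the second array of each pool, and LRP1 in column 10 at 0.0297 with the first array. Without a change of sign, the first array alone gave 0.18 for APOB and 0.26 for LCAT, and the second array alone -0.18 and -0.30 for LRP1 in columns 9 and 10. Without the second array of pool 3 LRP1 was at 0.0258 and 0.0414 in columns 9 and 10, and without the third array of pool 7 at 0.00544 in column 9. Leaving out 1 pool gave -0.0356 to 0.0925 for APOB, -0.0620 to 0.0314 for LRP1 in column 9, -0.09 to -0.00492 in column 10, 0.06 to 0.14 for LCAT and 0.14 to 0.72 for APOA1. With quantile normalization APOA1 was at 0.82. In a fit of arrays with their number as a replicate block, the differences were 0.10 for APOA1, 0.05 for APOB, 0.10 for LCAT, and -0.00286 and -0.03 for LRP1. Over all positions, the median difference of 0.03 was -0.03 with every ratio turned and -0.00846 with quantile normalization. The calls between lines rose from 0 to 8 with that block, to 8 with arrays as independent observations and to 5 with the correlation within pools, 0.173. The block and the independent fit count arrays that share the RNA of 1 pool as separate replicates. Calls from those fits are therefore not read as differences between the lines. Unadjusted calls rose from 28 to 48 and 47 with the block and with independent arrays, and ran from 18 to 30 with 1 pool left out. Calls between lean pools went from 1 to 2 without values beyond 5 or with at least 1 array per pool and ran from 0 to 3 with 1 pool left out. Between fat pools they went from 0 to 1 with centred arrays and ran from 0 to 2. The cause of these changes was not tested. The settings that left out 1 array and the averaging of all APOA1 positions (0.39) were added after seeing the data. APOA1 was not tested with 1 array per pool or with all 10 pools required, because too few pools had a value.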
